A study of Drosophila melanogaster with 3 samples.

Results

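The 7 genes that encode the subunits of the COPI coat were examined in chromatin immunoprecipitation followed by sequencing (ChIP-seq) of GFP-tagged CG17186 in Drosophila melanogaster embryos. The members were the listed genes alphaCOP, betaCOP, beta'COP, gammaCOP, deltaCOP, epsilonCOP and zetaCOP, out of 13945 coding genes on the 6 chromosome arms of dm6. They were chosen by the strength of the peaks at some of their promoters, so peak signals and counts of bound members are descriptions here and no test was made on them. A member was called bound when the summit of a peak lay within 500 bp of one of its transcription start sites (TSSs).

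The chromatin came from whole embryos of mixed sex, 0 to 14 hours old, of a fly line with a stable insertion that encodes CG17186 with GFP at its C-terminus. An anti-GFP antibody was used, and sonicated fragments were 200 to 800 bp long. There were 3 biological replicates in 1 group, all from the same line; untagged embryos and the control library named in the labels were not analysed here. The labels do not state the promoter that drives the tagged protein, and whole embryos mix all tissues. The authors' reproducible set (peaks that passed the irreproducible discovery rate procedure, IDR) held 3814 peaks, their relaxed pooled list 23428, and the relaxed replicate lists between 26139 and 30000. Sequencing depth is unknown.

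COPI coats the vesicles that carry proteins and lipids from the Golgi back to the endoplasmic reticulum and between Golgi cisternae. The small GTPase Arf1 brings the whole coat, called coatomer, to the membrane. The beta, gamma, delta and zeta subunits form an adaptor part related to clathrin adaptors, and the alpha, beta' and epsilon subunits form the outer cage. COPI is needed in all cells, and in fly embryos gammaCOP is known for its part in secretion into the tracheal tubes.

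The promoter of betaCOP was among the strongest sites of the genome, and the other COPI promoters were ordinary or weak ones. The pooled signal (the authors' value for each peak, on a scale that is not stated) was 12690.1 at betaCOP, rank 5 of the reproducible set. At alphaCOP it was 236.4, rank 926. The promoters of deltaCOP (128.7, rank 3005), beta'COP (117.4, rank 3456) and epsilonCOP (113.9, rank 3618) lay near the lower end of the set. Those of gammaCOP (80.0, rank 5661) and zetaCOP (56.0, rank 9111) were found only in the relaxed lists.

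The sequences below show what lay under the strongest COPI summit, beside the other COPI promoters that are described in detail and the promoter of ArfGAP3, a regulator of COPI with a peak of the same class. Each was read from the RefSeq copy of the dm6 assembly and runs 5′ to 3′ on the strand of its gene. Capitals mark matches to words named in the text that follows, in betaCOP also a site with 1 mismatch. The betaCOP stretch is chrX:18385243-18385442 (minus strand, the 200 bases before the TSS). The alphaCOP stretch is chr3L:1645200-1645319 (minus strand), and the beta'COP stretch is chr2L:13378782-13378901 (plus strand), each the 120 bases before the TSS. The deltaCOP stretch is chrX:1861781-1861900 (minus strand, from 110 bases before the TSS to 9 after it), and the ArfGAP3 stretch is chr3L:22717269-22717298 (minus strand, 30 bases around an internal TSS).
betaCOP: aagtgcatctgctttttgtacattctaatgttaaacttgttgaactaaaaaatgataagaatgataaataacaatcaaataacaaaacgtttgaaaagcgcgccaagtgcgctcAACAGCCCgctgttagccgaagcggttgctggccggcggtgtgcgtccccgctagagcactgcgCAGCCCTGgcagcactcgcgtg
alphaCOP: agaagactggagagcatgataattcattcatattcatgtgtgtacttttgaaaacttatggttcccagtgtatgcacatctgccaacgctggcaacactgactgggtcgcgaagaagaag
beta'COP: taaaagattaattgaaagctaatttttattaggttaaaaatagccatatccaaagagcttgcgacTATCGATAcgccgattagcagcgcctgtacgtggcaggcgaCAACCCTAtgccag
deltaCOP: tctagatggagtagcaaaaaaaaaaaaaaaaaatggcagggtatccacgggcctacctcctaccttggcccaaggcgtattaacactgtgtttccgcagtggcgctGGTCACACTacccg
ArfGAP3: tAACAGCACtgagcgaactAACAGCACgca

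Of the 7 members, 5 had a reproducible summit within 500 bp of a TSS, and 28.0% of all coding genes did. The weakest peak of the reproducible set had a signal of 109.3, and the strongest pooled peak outside it, at rank 3815, also had 109.3. epsilonCOP at 113.9 was the weakest member inside the set, and gammaCOP at 80.0 (rank 5661) was the strongest member outside it. The relaxed lists reach down to weak peaks, and there the same rule called most members and more than 50% of all coding genes. The pooled list had a summit for 7 members (55.2% of coding genes), replicate 1 for 7 (57.6%), replicate 2 for 6 (51.9%) and replicate 3 for 7 (57.3%). Among the 100 strongest reproducible peaks, betaCOP was the 1 member bound, against 0.939% of coding genes. The median signal of the strongest pooled summit was 117.4 over the 7 members and 111.0 over the 7691 coding genes that had one. Over the reproducible set alone it was 128.7 for the 5 members and 179.3 for 3905 coding genes.

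**Figure D1:**
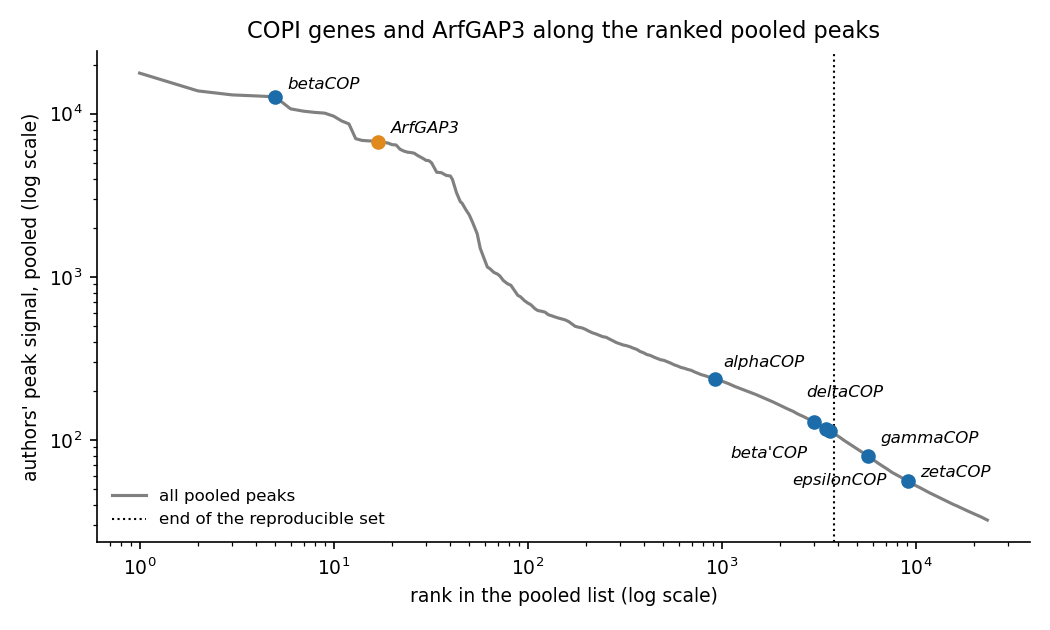
Pooled signal of every peak (vertical, log scale) against its rank (horizontal, log scale), with the 7 COPI genes in blue and ArfGAP3 in orange. betaCOP at 12690.1 and ArfGAP3 at 6738.9 sit on the high shoulder, alphaCOP at 236.4 on the slope, and gammaCOP and zetaCOP to the right of the dotted line at rank 3814 that ends the reproducible set.

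The adaptor part held both the strongest and the weakest members. betaCOP, the beta subunit, lies on the minus strand of X (18381549 to 18385242) with 1 annotated TSS. Its signal was 4325.2 in replicate 1, 3953.6 in replicate 2 and 4507.9 in replicate 3, and its rank was 5, 2 and 5. Signals of separately called lists are not on 1 scale, so each was also divided by the replicate's median over the 3758 peaks found in all 3 lists. This relative signal was 71.8 ± 7.16 (SD, n = 3), with values of 66.7, 80.0 and 68.8. All 3 replicates placed betaCOP close to the top, and none fell near another COPI gene.

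The betaCOP peak was also wide and sharply placed, but not alone in this. The strong ArfGAP3 peak was 990 bp wide, and its strongest summits in the replicates fell within 11 bp of each other. The same interval held a further, weak reproducible summit (113.2, rank 3652), 86 bp downstream of an ArfGAP3 TSS. The betaCOP peak spanned 18384953 to 18385652, a width of 700 bp. By comparison, 86.6% of reproducible peaks had the same width of 410 bp and 57 were wider than betaCOP. Peaks were counted per summit, so an interval with a further summit was counted again. The summit lay 50 bp upstream of the TSS in the pooled list and 57, 50 and 52 bp upstream in replicates 1, 2 and 3. No other gene had a TSS within 500 bp, and the nearest was that of Tsf1, a transferrin gene, 1842 bp away. Set against the strongest peak of each list, the betaCOP signal was 71.5% in the pooled list and 68.7%, 79.6% and 67.5% in the replicates.

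The peaks ranked next to betaCOP were picked by pooled signal, so a similar level follows from that choice. Above betaCOP were Tlk, a kinase of chromatin assembly (72.9 ± 4.33), and Spt20 of the SAGA complex (72.3 ± 1.16). Both differed from betaCOP by less than the spread between replicates. Below it came asl, a centriole gene (relative signal 60.7 ± 3.50), and yps, which encodes an RNA-binding protein (58.6 ± 2.49). betaCOP was above both of these in each of the 3 replicates. Its order against Tlk and Spt20 changed: it was below both in replicates 1 and 3 and above both in replicate 2.

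deltaCOP, the adaptor's medium subunit, lies on the minus strand of X (1859141 to 1861790) with no other TSS within 500 bp of its summit. Its signal was 36.3, 49.6 and 40.5 in replicates 1, 2 and 3, with ranks of 4664, 1827 and 4364. The relative signal was 0.727 ± 0.241 (SD, n = 3), the least even of the 7 between replicates, with a coefficient of variation of 33.1%. Replicate 2 was the high one and matched the median shared peak (1.00), and the others were at 0.560 and 0.618. The summit lay 79 bp upstream of the TSS in the pooled list and 46 to 81 bp upstream in the replicates.

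gammaCOP, the large adaptor subunit on the plus strand of 3R (31572143 to 31575707), had no reproducible peak. Replicate 1 gave a signal of 31.4 (rank 5690) and replicate 3 one of 36.8 (rank 5083), and replicate 2 listed no peak there. The relative signal was 0.523 ± 0.0539 over the 2 replicates with a peak. Its pooled summit lay 172 bp upstream of the TSS, with those of replicates 1 and 3 at 114 and 56 bp upstream.

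zetaCOP, the small adaptor subunit on the minus strand of 3L (16671664 to 16673555), was the weakest. Its signal was 30.8, 15.0 and 24 in replicates 1, 2 and 3, and its relative signal 0.382 ± 0.0861 (SD, n = 3). The summits did not fall in 1 place: they lay 82 bp upstream, 381 bp downstream and 38 bp downstream of the nearer of its 2 TSSs. The deposited −log10 q was 1.90, 0.12 and 0.72, so replicates 2 and 3 held this peak among low-ranking ones (ranks 15350 and 10495).

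The cage genes lay in head-to-head pairs and had peaks of moderate or low rank. alphaCOP, the large cage subunit, is on the minus strand of 3L (1641066 to 1645199), and the TSS of the uncharacterized gene CG13919 lies 268 bp from its own on the other strand. Its signal was 75.3, 66.2 and 96.5 in replicates 1, 2 and 3 (ranks 1325, 1025 and 777), and its relative signal 1.32 ± 0.156 (SD, n = 3). It was the second strongest member in every replicate and the only one besides betaCOP above the median shared peak in each. Its summit lay 60 bp upstream of its TSS and 208 bp upstream of that of CG13919.

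A further reproducible summit stood at the other end of the same interval. It had a pooled signal of 128.0 (rank 3036) and lay 2 bp from the CG13919 TSS and 266 bp upstream of alphaCOP. In the pooled list it reached 54.1% of the first summit, and in replicates 1, 2 and 3 23.0%, 19.5% and 39.0%. Its rank ran from 4919 in replicate 3 to 21353 in replicate 2. The deposited −log10 q of this further summit was 0.39, 0.04 and 2.17 in replicates 1, 2 and 3. In the pooled list it stood 206 bp from the first summit. Similar gaps separated the pooled summits of gammaCOP (216 bp) and epsilonCOP (226 bp), where peaks were 410 bp wide. Whether the further summit is a separate site was not tested. The summit near alphaCOP was the stronger in all 4 lists.

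beta'COP, the second cage subunit, lies on the plus strand of 2L (13378902 to 13382382), 364 bp from the TSS of CG9302. Its signal was 45.2, 31.1 and 56.1 in replicates 1, 2 and 3, and its relative signal 0.727 ± 0.116 (SD, n = 3). Its pooled summit was 99 bp upstream of its own TSS and 265 bp from that of CG9302, and all 3 replicates placed it nearer to beta'COP (100 to 172 bp upstream).

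epsilonCOP, the small cage subunit, which in yeast stabilises the alpha subunit, lies on the plus strand of 2L (6489090 to 6490194). Its signal was 36.7, 44.3 and 50.7 in replicates 1, 2 and 3, and its relative signal 0.745 ± 0.167 (SD, n = 3). The summit counted for it lay 271 bp upstream of its TSS but 63 bp from the TSS of KFase, kynurenine formamidase. The replicates agreed on that side: the summits were 101, 108 and 16 bp from KFase and 233, 226 and 318 bp from epsilonCOP. A weaker pooled summit nearer to epsilonCOP, 45 bp upstream of its TSS, had a signal of 57.8 (rank 8672) and was outside the reproducible set. When a summit counted for its nearest TSS alone, or the window was 250 bp, epsilonCOP was no longer bound and 4 members were. By these rules 19.4% and 24.7% of coding genes were bound.

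**Figure D2:**
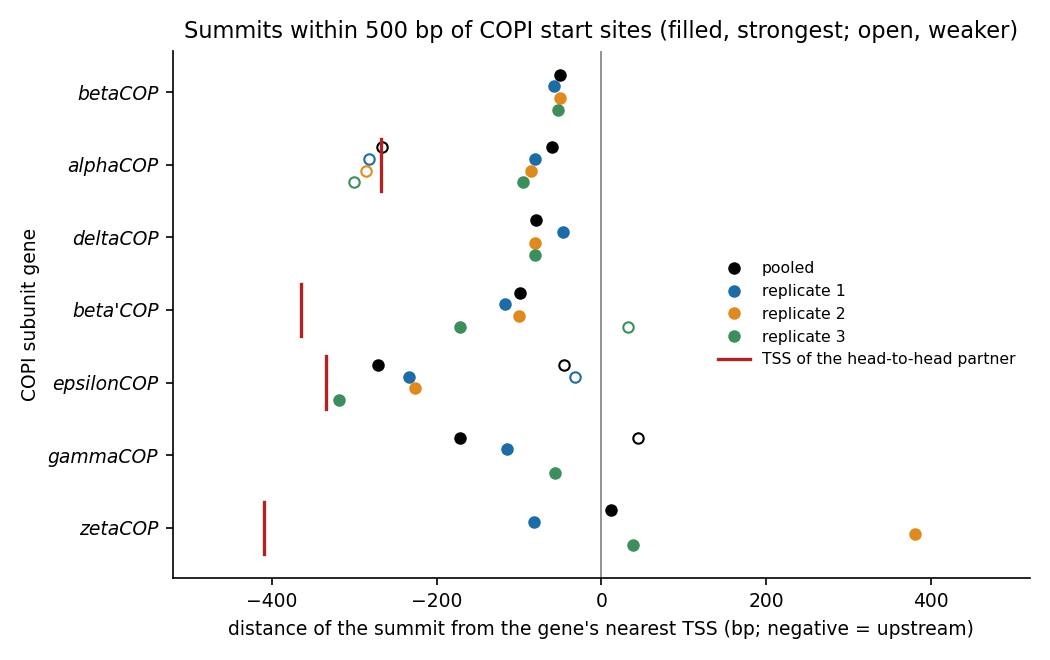
Distance of each summit within 500 bp from the nearest TSS of the COPI gene (horizontal, bp, negative upstream), for the pooled list and the 3 replicates; filled points are the strongest summit of a list and open points weaker ones. The betaCOP summits fall within 7 bp of each other between replicates. The zetaCOP summits of the replicates run from 82 bp upstream to 381 bp downstream of the nearer of its 2 TSSs. The strongest epsilonCOP summits sit beside the red line that marks its partner's TSS.

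The peaks next to the weaker members in rank were picked by pooled signal, so similar relative signals follow from that choice. Beside alphaCOP these were nearest to Idh3g (1.30 ± 0.28), Act5C (1.25 ± 0.225, 4706 bp from the TSS), vib (1.35 ± 0.148) and CG4970 (1.22 ± 0.463). Beside deltaCOP they included those nearest to Lim1 (0.616 ± 0.305, 11090 bp away), CG3626 (0.736 ± 0.181) and Su(z)2 (0.770 ± 0.102, n = 2). Each of these 7 differed from the member beside it by less than the larger of the 2 SDs. The peaks beside beta'COP, nearest to CG14762, Dyrk2, CG15725 and smid, had means from 0.586 to 0.783. Those beside epsilonCOP, nearest to wkd, px, CG15715 and tna, had means from 0.615 to 0.726.

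Head-to-head partners within 1000 bp were found for 4 of the 7 members, and for 35.2% of coding genes. These were alphaCOP, beta'COP, epsilonCOP and zetaCOP, the last with CG13032 at 409 bp. betaCOP, deltaCOP and gammaCOP had none. The strongest member was therefore at a promoter that serves 1 annotated gene.

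Within each replicate the gap between betaCOP and its partners in the coat was large. The signal of betaCOP was 57.4, 59.7 and 46.7 times that of alphaCOP in replicates 1, 2 and 3 (mean 54.6 ± 6.96 SD, n = 3). Against the remaining members the mean ratio ran from 98.7 ± 16.6 (epsilonCOP) to 197 ± 61.7 (zetaCOP). Below alphaCOP the order was not fixed. beta'COP, epsilonCOP and deltaCOP had relative signals of 0.727, 0.745 and 0.727, which differed by less than their SDs. beta'COP was the highest of them in replicates 1 and 3 and the lowest in replicate 2, where deltaCOP was the highest.

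**Figure D3:**
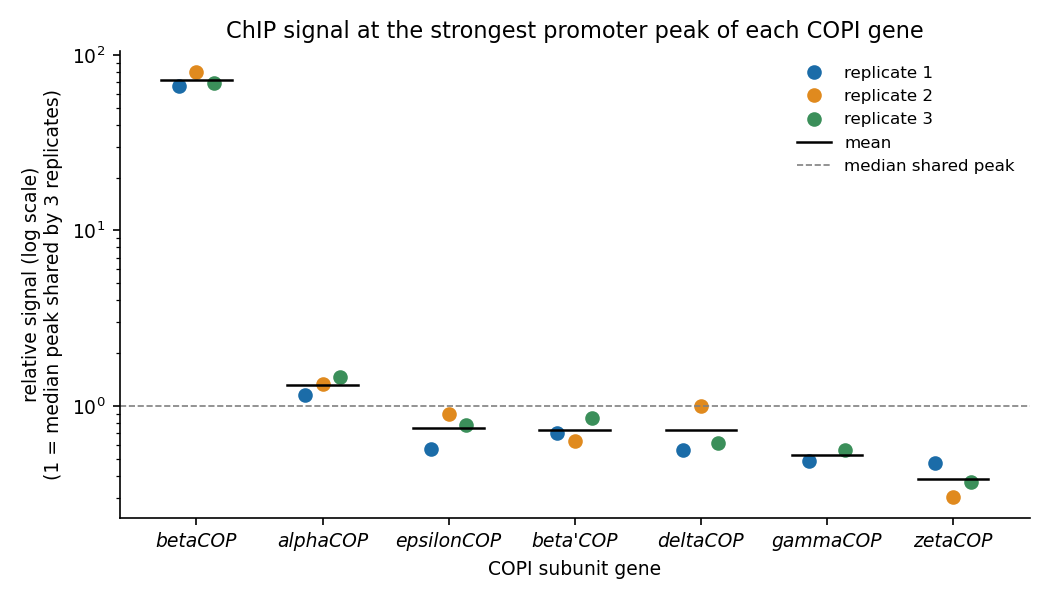
Relative signal (vertical, log scale; 1 is the median peak shared by all 3 replicates) at the strongest promoter peak of each COPI gene, with 1 point per replicate and a bar for the mean. The betaCOP points lie between 66.7 and 80.0, those of alphaCOP between 1.16 and 1.47, and those of the other members at or below 1.00; gammaCOP has no point for replicate 2.

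The word that most of the 25 strongest peaks share was absent from all 7 COPI summits. That word, AACAGCAC, was taken from an earlier analysis of the same peaks. Both strands were searched, up to 50 bp to either side of a summit. It was found at 76.0% of the 25 strongest summits, 46.0% of the 100 strongest and 1.97% of all reproducible summits. Of coding promoters (the 101 bp that end at the first TSS), 0.774% held it. None of the 7 members held it at the pooled summit, at the summits of any replicate, or within 100 bp. This places betaCOP among the 6 of the 25 strongest summits without the exact word.

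The betaCOP promoter held a near copy. The site AACAGCCC, shown in capitals above, starts 86 bp upstream of the TSS and 36 bp upstream of the summit, and differs from the word by A7C (the word's base, its position from the word's 5′ end, then the site's base). betaCOP was the only member with a site of at most 1 mismatch. Such sites were at 92.0% of the 25 strongest summits, 60.0% of the 100 strongest, 11.4% of all reproducible summits and 8.75% of coding promoters. The exact letters AACAGCCC were at 11 of 3814 reproducible summits (0.288%), 2 of them among the 25 strongest, and in 0.222% of coding promoters. Allowing 2 mismatches, a count made after the data were seen, betaCOP had 4 sites, against a median of 3 for the 25 strongest summits and 1 for all. By the same count 97.0% of reproducible summits had fewer than 4, while alphaCOP, beta'COP and epsilonCOP had 1 each and gammaCOP, deltaCOP and zetaCOP had 0.

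Words of other promoter factors were scattered among the members. The word of the insulator factor ZIPIC, CAGGGCTG, was found on the minus strand 28 bp downstream of the betaCOP summit, where it reads CAGCCCTG in the sequence above; 2.36% of reproducible summits and 1.33% of coding promoters held it. The promoter motif 7 word (CANCNCTA) was found at the summit counted for epsilonCOP (9.31% of summits, 6.78% of promoters). It starts 283 bp upstream of the epsilonCOP TSS, on the KFase side of that summit, which itself lay 63 bp from the KFase TSS. No member had TATCGATA, the word of the replication-related factor DREF (7.94% of summits, 6.30% of promoters), within 50 bp of its pooled summit. None had CATCGATA, which shares ATCGATA with it and is read by BEAF-32 (3.54% and 2.70%), or GGTCACACT, the M1BP word (4.93% and 2.29%).

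Some of these words lay a little farther out. TATCGATA began 44 bp downstream of the beta'COP summit and thus crossed the edge of the window, and it lay 79 bp upstream of that of gammaCOP. Another copy of TATCGATA was within 50 bp of the gammaCOP summit of replicate 3, which lay 56 bp upstream of the TSS. The motif 7 word at epsilonCOP was within 50 bp of the summits of replicates 1 and 3 but not of replicate 2. The M1BP word began 75 bp downstream of the deltaCOP pooled summit, 4 bp before the TSS, and was within 50 bp of the summit of replicate 1. A motif 7 word, CAACCCTA, began 14 bp before the beta'COP TSS. alphaCOP, the second strongest member, had no match to any of the 6 words within 100 bp. A match here describes letters and does not show a bound site.

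The betaCOP summit was also extreme in base composition. Of the 101 bp around it, 70.3% were G or C, and none of the 3814 reproducible summits had more (median 39.6%). The 25 strongest summits had a median of 47.5%. The other members ranged from 28.7% (beta'COP) to 43.6% (alphaCOP), within the bulk of the set, where the 5th and 95th percentiles were 24.8% and 55.4%. It held the top place in the 101 bp window alone of the 4 tried, of which the other 3 were chosen after the data were seen. In 51 bp betaCOP had 68.6% and 11 summits had more, in 201 bp it had 56.7% and 25 summits had more, and in 301 bp it had 47.8% and 247 had more. The part of base composition in the signal was not tested.

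**Figure D4:**
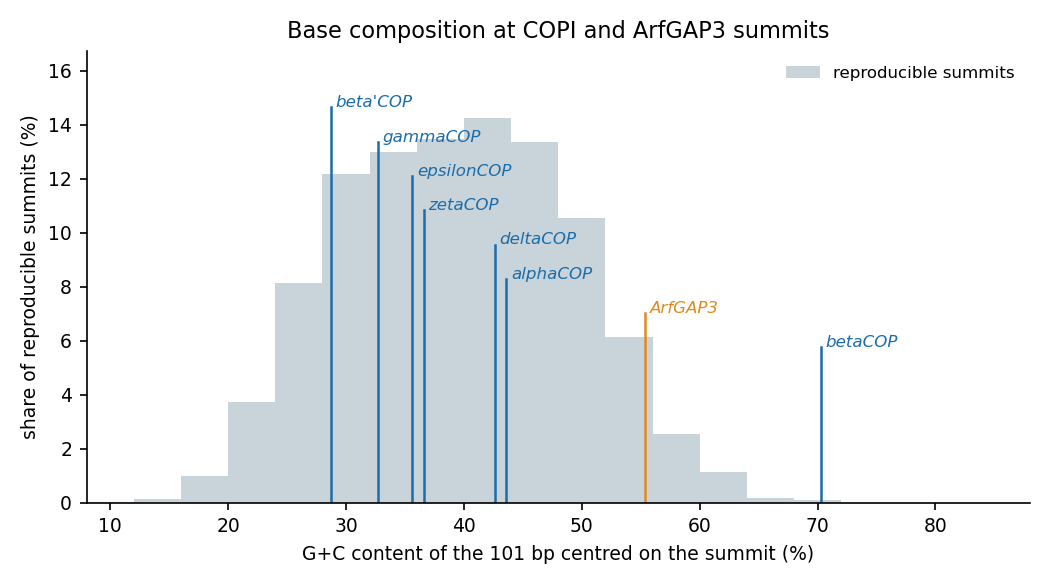
Share of reproducible summits (vertical, %) by G+C content of the 101 bp around them (horizontal, %), with a line for each COPI gene (blue) and ArfGAP3 (orange); line heights only keep the names apart. betaCOP at 70.3% lies within the last bar on the right, and the other COPI genes lie between 28.7% and 43.6%.

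Many genes that act with COPI or in the same transport steps had a promoter peak, and 1 of them had a very strong one. The lists of COPI regulators and cargo receptors, of other coats and of Golgi traffic genes held 67 genes, and 44 of these (65.7%) were bound, beside 28.0% of coding genes. Counting a summit for its nearest TSS alone, 27 of the 67 were bound, beside 19.4% of coding genes. In the 100 strongest peaks there was 1 gene of the 67, ArfGAP3, whose product makes Arf1 hydrolyse GTP so that the coat comes off.

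Of these 67 genes, ArfGAP3 had the peak nearest in signal to that of betaCOP. Its signal was 2493.4, 1765.0 and 2644.5 in replicates 1, 2 and 3, at ranks 15, 21 and 15, and its relative signal was 38.2 ± 2.32 (SD, n = 3). The signal of betaCOP was 1.73, 2.24 and 1.70 times that of ArfGAP3 in the 3 replicates, higher in each. The strongest ArfGAP3 summit lay 15 bp upstream of an internal TSS and also within 500 bp of CG32452, whose TSS was 437 bp away. The exact word AACAGCAC occurs 2 times there, with starts 18 bp apart, as the sequence above shows. Its G+C content was 55.4%.

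Of 7 regulators 4 were bound: besides ArfGAP3, garz, the exchange factor that loads Arf1 with GTP, had a signal of 244.3, Arf1 itself 139.8, and yata 113.6. Of the remaining 3, ArfGAP1 had a peak in the relaxed pooled list alone (61.9), and neither Sec71 nor Arf4 had a pooled peak within 500 bp. yata and these 3 were named after their values were seen. The garz summit also lay within 500 bp of CG8841, that of Arf1 of CG11109 and asRNA:CR45969, and that of yata of ATPsyngamma. Of 10 cargo receptors 7 were bound, led by CG11857, related to the retrieval receptor Rer1 of yeast (419.8), and by bai (374.7) and CHOp24 (298.9) of the p24 family. KdelR, also named after its values were seen and known as the receptor that returns resident proteins of the endoplasmic reticulum, was at 112.3 with a summit 282 bp upstream of its TSS that also lay within 500 bp of SmB.

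Other coats and the Golgi machinery gave the same picture of moderate peaks. Of 9 genes of COPII, the coat that leaves the endoplasmic reticulum, 8 were bound, led by Tango1 (381.5), CG9175 (284.3) and Sar1, its small GTPase (197.2). Of 13 clathrin and adaptor genes 10 were bound, led by AP-2alpha (354.9), rb (298.9) and AP-1mu (242.7). Of 10 SNARE genes, which encode membrane fusion proteins, 6 were bound, led by Ykt6 (341.6), Syx18 (164.3) and Gos28 (156.1). Of 18 tethers and golgins 9 were bound, led by fws, a subunit of the COG complex (369.4), Golgin97 (286.2) and Rint1 (246.7). The shared summit of rb and CHOp24 is counted in both of their lists. The median signal of the bound genes was 128.7 for COPI and 151.0 to 230.8 for the other lists, and 179.3 over all bound coding genes.

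**Figure D5:**
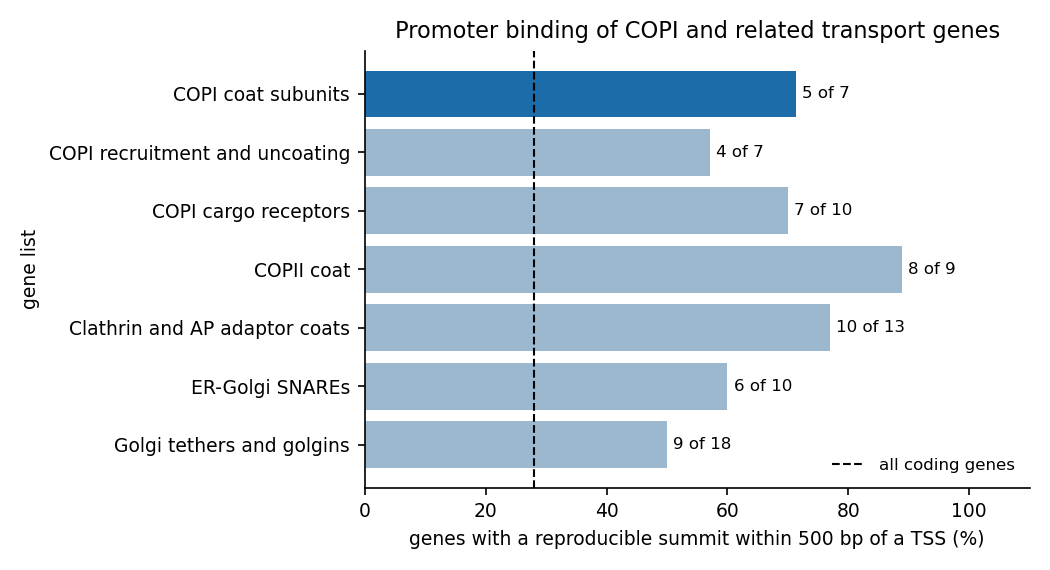
Share of each gene list with a reproducible summit within 500 bp of a TSS (horizontal, %), with the count beside each bar and a dashed line at 28.0% for all coding genes. COPI subunits stand at 5 of 7, the COPII coat at 8 of 9, and tethers and golgins at 9 of 18.

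Peaks inside the COPI genes were few and weak. Away from the promoters, the reproducible set and the pooled list had no summit within any of the 7 genes, and the relaxed replicate lists had 2, 2 and 6. The highest of these had a signal of 21.4, in beta'COP in replicate 3. At betaCOP, the summits within the gene had signals of 14.0 in replicate 2 and 16.9 and 15.3 in replicate 3, beside 3953.6 and 4507.9 at the promoter.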

How the data were processed

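ChIP-seq of GFP-tagged CG17186 was read from the dm6 peak lists that the authors deposited. Per the read-me tables deposited with the samples, a relaxed list was called on each of 3 replicates against a control alignment and on the pooled replicates, and IDR gave the thresholded list. The sources used here name no aligner, peak caller or IDR threshold. The peak signal (column 7) and the −log10 q (column 9) are the authors' deposited values; without read counts, depth is unknown. The dm3 lists were not used. Gene models came from Ensembl release 115 and sequence from the RefSeq copy of dm6, whose arms carry the same names.

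The members and lists were chosen with earlier results of these data known. Summits were placed within 500 bp of TSSs, signals divided by replicate medians over shared peaks (overlap of at least 1 bp), and words searched on both strands. Named genes were all members, genes sharing their summits, the 3 strongest of each list, genes among the 100 strongest peaks, and rank neighbours, 1 of which is not reported here. Of 74 list symbols, 72 matched directly, 1 by case and 1 (Sec12) by a RefSeq synonym. Alternatives changed the window, the TSS rule, the list, the scaling and the word window. Python 3.11.15 with pandas 2.3.3 was used, and the search routines were tested on simulated data.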

Additional observations from a re-analysis of the deposited data

How the results depend on the processing

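Of 75 comparisons of a result with an alternative, 58 were labelled as little changed and 17 as moved. The results are counts, positive signals and ratios, so none could reverse. Those labelled as little changed include word counts that stayed at 0. They also include shifts in the bound members from 5 to 4, and to 7 in the pooled list. The count of bound members ran from 3 to 7 under the other windows, TSS rules and lists. Under these, 19.4% to 55.2% of coding genes were bound. The exception was the stronger 50% of reproducible peaks, where 2 members (alphaCOP and betaCOP) remained of 5, beside 15.6% of coding genes. In the strongest peaks of replicates 1, 2 and 3, cut to the size of the reproducible set, 3, 5 and 4 members were bound. betaCOP, alphaCOP and beta'COP were among them in each. The same cut lists had 27.5%, 27.0% and 26.6% of coding genes bound. Of the 67 related genes, 44 were bound in the main count, 27 with the nearest TSS only and 22 in the stronger 50% of peaks. The shares of coding genes by these 3 rules were 28.0%, 19.4% and 15.6%. Scaling by the median of each whole relaxed list (16.1 to 19.7, against 49.4 to 65.6 over shared peaks) gave betaCOP a relative signal of 242, alphaCOP 4.47, beta'COP 2.47, gammaCOP 1.86, deltaCOP 2.42, epsilonCOP 2.49 and zetaCOP 1.32. Leaving out 1 replicate moved betaCOP between 67.7 and 74.4, and its ratio to alphaCOP between 52.1 and 58.6; in the pooled list, added after the data were seen, the ratio was 53.7. The windows for G+C content were also added then. No paired analysis was possible because there was 1 group. No p-value is given, since the members were chosen on these signals, and unknown depth limits what the weak peaks can show.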

Other observations

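Summits within 500 bp of a COPI TSS are left out here, such as those 2 bp from the CG13919 TSS and 63 bp from the KFase TSS. Apart from these, the pooled list had a peak at 5 neighbouring promoters within 1500 bp of the COPI genes. Of these 5 peaks, 2 were in the reproducible set. The summit at the promoter of CG6179, on the far side of betaCOP, had a pooled signal of 155.6 (rank 2175) and signals of 57.9, 47.5 and 57.1 in replicates 1, 2 and 3. At Lamtor5, which encodes a subunit of the lysosomal Ragulator complex and lies beyond the end of deltaCOP, the pooled signal was 107.3 (rank 3888), just outside the reproducible set, with 43.6, 40.3 and 34.5 in the replicates. Beyond epsilonCOP, the summit between CG31638 and Phf5a had a pooled signal of 129.2 (rank 2986), with 62.4, 44.0 and 16.5 in the replicates; replicate 3 was the low one. The others were at Bgb, beside alphaCOP (pooled signal 79.8, rank 5677), and at loqs, beside beta'COP (64.2, rank 7424), both outside the reproducible set. Beside gammaCOP and zetaCOP the pooled list had no such peak.

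Besides betaCOP, the 25 strongest summits without AACAGCAC within 50 bp were those nearest to Tlk, ND-B14.7, eEF1gamma, Vps53 and CG11095. Of these 6 summits, eEF1gamma had the word within 100 bp, and betaCOP, ND-B14.7, Vps53 and CG11095 had at least 1 site with 1 mismatch. Tlk had neither. Their G+C content ran from 23.8% at eEF1gamma to 70.3% at betaCOP.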
